A study of Homo sapiens with 15 samples.

Results

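PML, SP100, SP110, SP140, TRIM5, TRIM21, TRIM22 and TRIM25 are 8 interferon-linked antiviral genes whose products form or join PML nuclear bodies or act as ubiquitin ligases of the tripartite motif (TRIM) family. They were chosen by name, but with earlier results of these data known. The study itself lists SP100 and TRIM25 among the most significant genes raised by IFN-α on these arrays. A transcript cluster is the unit in which the array sums its probes for a transcript. It belonged to the group when the array annotation gave it exactly 1 of the 8 symbols. Each gene had 1 such cluster, so 8 clusters of the 28926 on the array are described, and 1 further cluster that carries SP100 together with other symbols was not used. The RNA came from MT-2, a line of CD4+ T cells that HTLV-1 had transformed and still infects, and was profiled on Affymetrix Human Gene 1.0 ST arrays. The cells were cultured for 48 hours with 1000 IU/ml IFN-α (interferon-α2A), with 10, 50 or 100 µg/ml ascorbic acid (AA; low, intermediate and high dose), or untreated. Each of the 5 conditions has 3 arrays, 1 for each of 3 title tags, here called experiments, which gives 15 arrays in all. The labels do not say whether these were independent experiments. The labels name no vehicle for the untreated cultures, and all arrays come from the same single cell line.

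Of 9 CD4 T-cell markers, 4 (CD4, IL2RA, CCR4 and TNFRSF4) lay above the upper quartile of every array, whereas CD3E, CD5 and CD28 lay below the median of every array. Markers of other blood cells were mixed. MS4A1 (B cells), LYZ (monocytes) and KLRD1 (NK cells) lay below the lower quartile of all 15 arrays, but CD79A (B cells), CD14 and CSF1R (monocytes) and CD8A and CD8B (CD8 T cells) did so in 0 arrays. CSF1R lay above the median of 1 array, CD79A, CD14, CD8A and CD8B above that of none, and the NK markers NCAM1 and NCR1 above that of all 15. No marker was called under any treatment. One array stood apart: high-dose AA in experiment 3 had a mean correlation of 0.976 with the other arrays and an SD of 2.02 across clusters, against 0.991 to 0.995 and 2.12 to 2.18 for the other 14. Values are log2 and come from background-corrected and quantile-normalized probe intensities, so a step of 1 is a doubling. They are compared between arrays for the same gene, never between genes, because probes differ in brightness. All 8 genes lay above the median of every array.

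PML nuclear bodies are dots in the nucleus built around PML, itself a TRIM protein, which is modified by the small protein SUMO and thereby recruits partners such as SP100. SP100, SP110 and SP140 belong to one family of chromatin-binding nuclear proteins, and several PML-body proteins silence incoming viral DNA. The TRIM ligases act elsewhere: TRIM5 binds the capsid of incoming retroviruses, TRIM21 binds antibody-coated particles in the cytosol, TRIM25 acts with the RNA sensor RIG-I and with the antiviral protein ZAP, and TRIM22 limits transcription of HIV-1. Type I interferon is known to raise many antiviral genes through the factor ISGF3, which binds a short sequence called the interferon-stimulated response element.

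The sequences around the transcription starts are shown because they hold, or lack, a match to 1 short pattern used here to search for that element. RefSeq windows on GRCh38.p14, running from 250 bases before to 50 bases after a start, were found for 6 of the 8 genes (8 windows). The motif searched on both strands was GAAA, then any 2 bases, then GAAA again, which occurs exactly in 3.57% of 35116 windows of all genes and with at most 1 letter off in 33% of them. Capitals mark its letters below, exact in TRIM21 and TRIM5 and with 1 letter off in TRIM25, SP110 and SP140, and SP100 has no capitals because neither of its windows holds a match.
TRIM21, chr11:4393663-4393692, minus strand, bases 11 to 40 of the transcript: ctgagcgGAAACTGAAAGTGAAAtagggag
TRIM5, chr11:5685075-5685134, minus strand, the 60 bases before the start: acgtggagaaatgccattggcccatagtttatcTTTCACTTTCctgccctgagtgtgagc
TRIM25, chr17:56914043-56914099, minus strand, from 50 bases before the start to base 7: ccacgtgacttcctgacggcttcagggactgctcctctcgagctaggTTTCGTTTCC
SP110, second start, chr2:230219985-230220054, minus strand, the 70 bases before the start: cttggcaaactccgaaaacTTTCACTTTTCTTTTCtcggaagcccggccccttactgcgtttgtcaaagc
SP140 and the first start of SP110, chr2:230225637-230225742, plus strand, from 99 bases before the start of SP140 to base 7: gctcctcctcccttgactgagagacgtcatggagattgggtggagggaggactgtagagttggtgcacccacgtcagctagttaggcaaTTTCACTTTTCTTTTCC
SP100, first start, chr2:230416101-230416200, plus strand, the 100 bases before the start: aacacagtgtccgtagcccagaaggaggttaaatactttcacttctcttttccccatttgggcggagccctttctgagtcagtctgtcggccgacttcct

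TRIM21 held 2 exact copies that overlap and lie at bases 18 to 27 and 24 to 33 after its start. TRIM5 held 1 exact copy on the opposite strand, from 27 to 18 bases before its start, and a match with 1 letter off that overlaps it and is left in lower case where the 2 differ. The first start of SP110 and the start of SP140 face away from each other with 99 bases between them, so 1 stretch of letters next to the start of SP140 lies in the windows of both genes. These matches are letters in a window and no measurement of binding. For this element only this spacing was searched, with at most 1 letter off, so the lack of a match in SP100 does not show that the element is absent. A second pattern, TTCNNNGAA with N as any base, was also searched and occurs in 7.66% of all windows. It matched in 1 of the genes, from 38 to 30 bases before the second start of SP110, and is not marked in capitals.

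**Figure D1:**
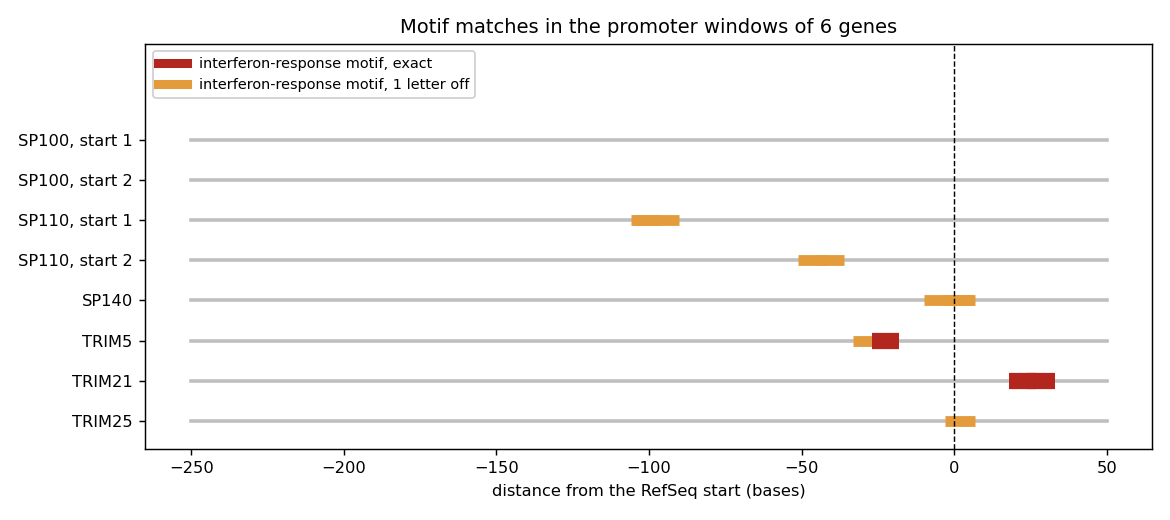
Positions of matches to the interferon-response motif in the 8 RefSeq promoter windows of 6 genes, with the distance from the transcription start in bases on the x axis and 1 grey line per window. Exact matches to the interferon-response motif lie in TRIM5 and TRIM21, matches with 1 letter off in SP110, SP140, TRIM5 and TRIM25, and none in either window of SP100.

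IFN-α raised SP100 3.65-fold, TRIM25 2.45-fold, SP110 2.31-fold and TRIM21 2.06-fold in MT-2 cells, and each of these changes passed both thresholds used here. TRIM5 rose 1.59-fold and PML 1.32-fold at the first threshold only. SP140 and TRIM22 were not called, with 1.16-fold and 1.47-fold higher values. In every one of the 8 genes the 3 IFN-α arrays lay above all 12 arrays without IFN-α, a pattern that 0.75% of all clusters showed. All 8 also lay above the untreated arrays without overlap (2.62% of clusters) and were higher in each of the 3 experiments (9.47%). The first threshold, taken from the study's methods, is a two-sided limma p under 0.001 before adjustment. A gene that passes it is referred to as called, which held for 6 of the 8 genes and for 0.28% of all clusters. At a Benjamini-Hochberg adjusted p under 0.05, which 0.221% of clusters passed, 4 of the 8 remained. The median change of the 8 genes was 0.86 on the log2 scale, whereas that of all 28926 clusters was -0.01. The RNA of whole cultures was measured, so more RNA per cell and more cells that make a transcript cannot be told apart.

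SP100, the PML-body resident that gave its family its name, changed most. Its cluster (8048940) measured 9.87, 9.69 and 9.95 in IFN-α-treated cells of experiments 1, 2 and 3, against 8.14, 7.81 and 7.96 in untreated cells. The lowest IFN-α array lay 1.55 above the highest untreated array. The log2 change was 1.87 ± 0.111 (SE, n = 3 arrays per condition) with a 95% interval of 3.10 to 4.30 for the fold, and the adjusted p in limma was 2.29e-07. Within the 3 experiments the change was 1.73, 1.88 and 1.99.

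SP110, a nuclear-body protein of the same family, followed with smaller changes. Its cluster (8059650) measured 9.28, 9.23 and 9.48 in IFN-α-treated cells, against 8.30, 7.97 and 8.11 in untreated cells. The groups were separated by 0.93, more than the distance between any 2 arrays of either condition. The log2 change was 1.21 ± 0.110 (SE), a fold of 1.96 to 2.72 at 95%, with an adjusted p of 3.79e-05 in limma.

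SP140, a chromatin reader made mainly in white blood cells, had the smallest change of the 8 genes. Its cluster (8048898) measured 9.56, 9.64 and 9.65 in IFN-α-treated cells, against 9.42, 9.34 and 9.43 in untreated cells. The groups did not overlap, but only 0.13 separated them. The log2 change of 0.22 ± 0.0918 (SE) had an unadjusted p of 0.0320 in limma and did not pass the adjusted threshold, with a fold between 1.02 and 1.33 at 95%.

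SP110 and SP140, whose first starts lie back to back, thus differed in size of change. In the 3 experiments IFN-α changed SP110 by 0.99, 1.26 and 1.37 and SP140 by 0.14, 0.30 and 0.22. The change of SP110 exceeded that of SP140 by 0.84, 0.96 and 1.15 in experiments 1, 2 and 3. With 3 experiments this difference between genes was not tested. In RefSeq order SP110, SP140, SP140L and SP100 are neighbours on chromosome 2, and SP110 and SP100 at the ends of that row were called while SP140 was not.

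PML, the scaffold of the bodies, changed little but evenly. Its cluster (7984779) measured 8.67, 8.85 and 8.80 in IFN-α-treated cells, against 8.27, 8.44 and 8.40 in untreated cells. Every IFN-α array lay above every untreated array, and the change within experiments was 0.40, 0.42 and 0.40. The log2 change of 0.41 ± 0.0868 (SE), a fold of 1.16 to 1.51 at 95%, had an unadjusted p of 3.66e-04 and an adjusted p of 0.145 in limma. The call was lost without untreated replicate 1 or 3, IFN-α replicate 2 or 3, or any whole experiment (p between 0.00115 and 0.0110), although the change stayed between 0.36 and 0.42 in these fits. The call of PML held in 11 of 18 fits with an array or experiment left out. The lowest adjusted p among these 18 was 0.0823 in limma. Over 9 other alternatives the adjusted p in limma ran from 0.0260 to 0.357.

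TRIM25, the ligase that acts with RIG-I, had the most significant change among the TRIM genes. Its cluster (8016847) measured 10.87, 10.92 and 10.79 in IFN-α-treated cells, against 9.46, 9.61 and 9.64 in untreated cells. The lowest IFN-α array exceeded the highest untreated array by 1.15. The log2 change was 1.29 ± 0.0935 (SE), a fold of 2.13 to 2.81 at 95%, with an adjusted p of 2.61e-06 in limma.

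TRIM21, the cytosolic antibody receptor, rose by a similar amount in all experiments. Its cluster (7945962) measured 8.54, 8.63 and 8.53 in IFN-α-treated cells, against 7.40, 7.61 and 7.55 in untreated cells. The groups were 0.92 apart, and the change within experiments was 1.13, 1.02 and 0.98. The log2 change was 1.04 ± 0.123 (SE), a fold of 1.72 to 2.48 at 95%, with an adjusted p of 5.97e-04 in limma.

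TRIM5, the capsid-binding restriction factor, rose less. Its cluster (7946089) measured 8.37, 8.41 and 8.30 in IFN-α-treated cells, against 7.63, 7.71 and 7.73 in untreated cells. The 2 sets of arrays were 0.57 apart and varied little within each condition. The log2 change of 0.67 ± 0.139 (SE), a fold of 1.29 to 1.95 at 95%, had an unadjusted p of 2.96e-04 and an adjusted p of 0.122 in limma. The fit shares its error over all conditions, and the SD of TRIM5 was 0.0567 in IFN-α-treated and 0.0499 in untreated cells, but 0.370 at the high dose of AA. The call was lost without any 1 untreated array, IFN-α replicate 1 or 2, or experiment 1 or 2 (p between 0.00102 and 0.00902), although the change stayed between 0.63 and 0.68 in these fits. The call of TRIM5 held in 11 of 18 fits with an array or experiment left out. The lowest adjusted p among these 18 was 6.59e-04 in limma. Over 9 other alternatives the adjusted p in limma ran from 0.00109 to 0.123.

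TRIM22, a neighbour of TRIM5 in a TRIM cluster on chromosome 11, differed between experiments more than the other genes did. Its cluster (7938035) measured 10.61, 10.997 and 10.95 in IFN-α-treated cells, against 9.78, 10.54 and 10.57 in untreated cells. Experiment 1 was the low one in both conditions, and its IFN-α array exceeded the highest untreated array, which came from experiment 3, by only 0.04. Over the 12 arrays without IFN-α the mean was 9.76 in experiment 1, 10.38 in experiment 2 and 10.30 in experiment 3. The tags of experiments 2 and 3 share a date that the tag of experiment 1 does not, and a link to the date was not tested. The SD within conditions was 0.345 for TRIM22, against 0.0943 to 0.183 for the other 7 genes.

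IFN-α nevertheless raised TRIM22 within each experiment, by 0.82, 0.46 and 0.38. The change of 0.55 ± 0.246 (SE) had an unadjusted p of 0.0405 in limma without a block and did not pass the adjusted threshold. With the experiment as a fixed block the SE was 0.122 and the unadjusted p 6.48e-04, which is a call, although the adjusted p was 0.211. With the experiment as a random block the unadjusted p was 0.0119. Among the 8 genes this was the only call against untreated cells that the fixed block changed, and it brought the count to 7 of 8.

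**Figure D2:**
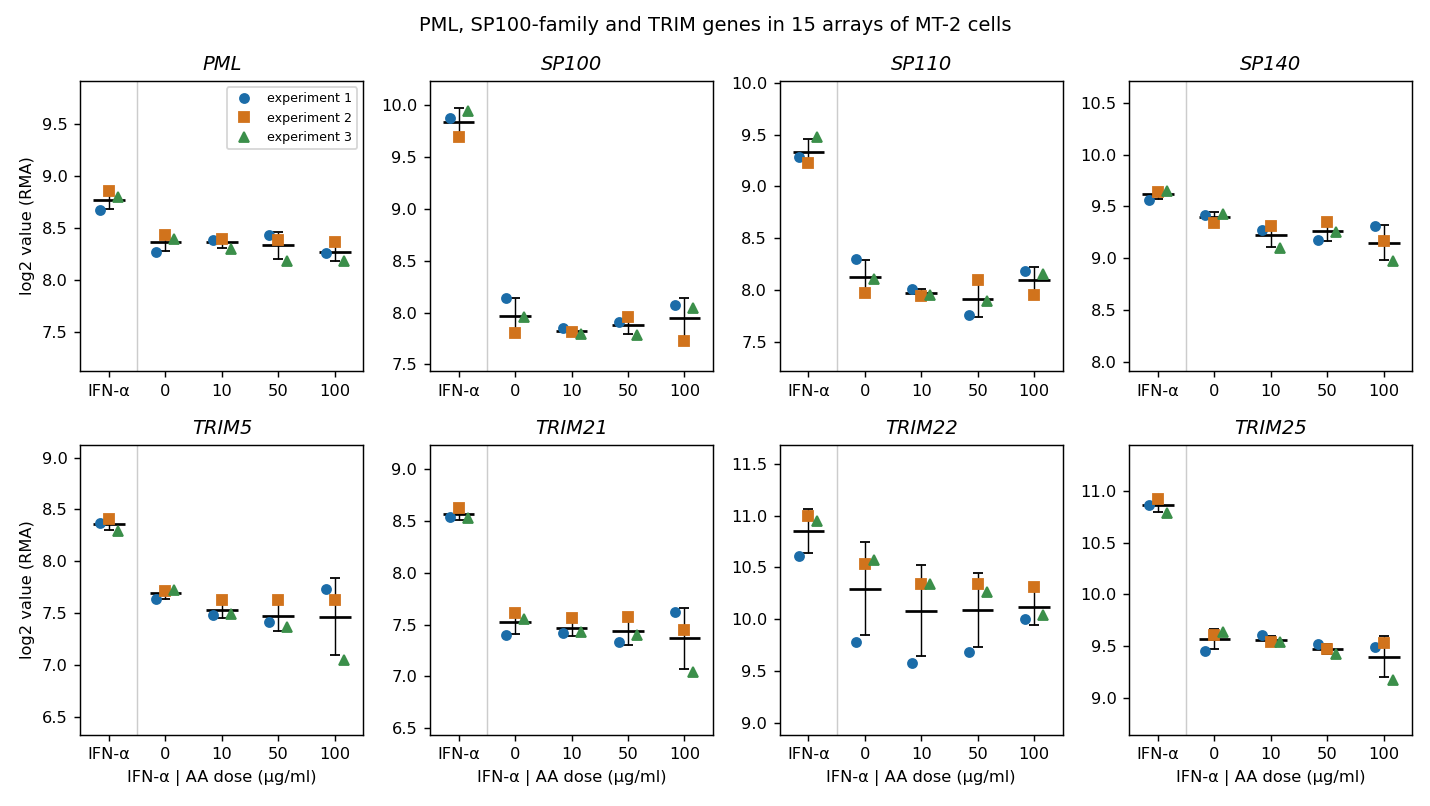
Log2 values of the 8 genes in the 15 arrays, with IFN-α at the left of each panel and the AA dose in µg/ml to the right of the line, where 0 is untreated; colours and shapes mark the 3 experiments, bars the mean and whiskers the SD (n = 3), and all y axes span the same range. The IFN-α points lie above all other points in every panel, by the widest margin in SP100, and experiment 1 lies low throughout in TRIM22.

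None of the 8 genes was called at any dose of AA, where their mean log2 changes lay between -0.25 and -0.00. At the low dose 0 of 8 were called (0.0207% of all clusters were), at the intermediate dose 0 of 8 (0.0311%) and at the high dose 0 of 8 (0.259%). At each dose 0 clusters of the array (0%) passed an adjusted p under 0.05, while 735 clusters (2.54%) had an unadjusted p under 0.05 at the low, 678 (2.34%) at the intermediate and 3169 (11%) at the high dose. Of the 8 genes only SP140 was among these, at the high dose. The count of clusters called at the high dose, 75, moved with single arrays. Leaving out the high-dose array of experiment 1, 2 or 3 gave 418, 171 or 38, the untreated array of experiment 2 or 3 gave 44 or 28, and all arrays of experiment 2 or 3 gave 19 or 45. At the intermediate dose 9 clusters were called, and 3 to 29 with an array or experiment left out (29 when the high-dose array of experiment 3 was dropped). At the low dose 6 were called, and 1 to 19, both ends of this range coming from the loss of a low-dose array (experiment 3 for 1, experiment 2 for 19). The median change of the 8 genes was -0.15 at the low, -0.11 at the intermediate and -0.16 at the high dose, whereas that of all clusters was between 0.01 and 0.02. All 8 mean changes were below 0 at each dose, as were 47.7%, 47.4% and 45.6% of all clusters. The 3 comparisons share the same untreated arrays, so these directions are not independent of each other.

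SP140 had the lowest unadjusted p at the high dose. It measured 9.42, 9.34 and 9.43 in untreated cells, 9.27, 9.31 and 9.10 at 10 µg/ml, 9.17, 9.35 and 9.25 at 50 µg/ml and 9.31, 9.16 and 8.97 at 100 µg/ml. The high-dose arrays all lay below the untreated ones by at least 0.03, with no overlap. The high-dose change was -0.25 with a 95% interval of -0.45 to -0.05, an unadjusted p of 0.0173 and an adjusted p of 0.439 in limma, and a lower value without overlap was found in 3.66% of all clusters.

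SP100, SP110 and PML overlapped their untreated arrays at every dose. SP100 measured 7.85, 7.81 and 7.80 at 10 µg/ml, 7.91, 7.96 and 7.78 at 50 µg/ml and 8.07, 7.72 and 8.05 at 100 µg/ml. SP110 measured 8.01, 7.94 and 7.96 at 10 µg/ml, 7.76, 8.10 and 7.90 at 50 µg/ml and 8.18, 7.95 and 8.16 at 100 µg/ml. PML measured 8.39, 8.40 and 8.30 at 10 µg/ml, 8.43, 8.38 and 8.19 at 50 µg/ml and 8.26, 8.37 and 8.18 at 100 µg/ml. SP100 had its lowest mean at 10 µg/ml, SP110 at 50 µg/ml and PML at 100 µg/ml. At the high dose the 95% interval of the log2 change was -0.26 to 0.22 for SP100, -0.26 to 0.21 for SP110 and -0.28 to 0.09 for PML.

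TRIM5, TRIM21 and TRIM25 spread more widely at the high dose, where experiment 3 was low. TRIM5 measured 7.48, 7.62 and 7.49 at 10 µg/ml, 7.41, 7.63 and 7.37 at 50 µg/ml and 7.73, 7.63 and 7.04 at 100 µg/ml. TRIM21 measured 7.42, 7.56 and 7.43 at 10 µg/ml, 7.33, 7.58 and 7.40 at 50 µg/ml and 7.62, 7.45 and 7.05 at 100 µg/ml. TRIM25 measured 9.60, 9.54 and 9.54 at 10 µg/ml, 9.53, 9.48 and 9.43 at 50 µg/ml and 9.50, 9.54 and 9.17 at 100 µg/ml. In all 3 genes the array of experiment 3 at 100 µg/ml was the lowest of the 15. The high-dose intervals at 95% were -0.52 to 0.07 for TRIM5, -0.41 to 0.11 for TRIM21 and -0.37 to 0.04 for TRIM25.

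This array is the one that stood apart across all clusters. High-dose AA in experiment 3 changed the 8 genes by a median of -0.46, the brightest 25% of clusters by -0.20 and the dimmest 25% by 0.24. In experiments 1 and 2 the median of the 8 genes was 0.01 and -0.08 at that dose, with 0.08 and -0.02 for the brightest clusters. The part of this array-wide shift in the values of the 8 genes was not tested. Without the array the high-dose changes lay between -0.16 for SP140 (unadjusted p of 0.0825 in limma) and 0.01 for TRIM21, with -0.01 for TRIM5, -0.05 for TRIM25 and -0.05 for PML, and 0 of the 8 genes were called.

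TRIM22 again separated by experiment. It measured 9.57, 10.34 and 10.34 at 10 µg/ml, 9.68, 10.34 and 10.26 at 50 µg/ml and 10.00, 10.31 and 10.04 at 100 µg/ml. Its change at the low dose was almost the same in the 3 experiments, -0.21, -0.20 and -0.23, but was not called with the experiment as a fixed block (unadjusted p of 0.107 in limma). At the high dose the changes were 0.22, -0.22 and -0.53, so the experiments disagreed in direction.

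Counted within experiments, 4 of the 8 genes (SP110, SP140, TRIM5 and TRIM22) were lower in all 3 experiments at the low dose, as were 13.6% of all clusters. At the intermediate dose these were TRIM5, TRIM21 and TRIM22, 3 of 8 beside 13.3% of all clusters. At the high dose they were PML and SP140, 2 of 8 beside 11.4%. Beside SP140 at the high dose, SP140 and TRIM5 at the low dose (4.88% of all clusters) and TRIM5 at the intermediate dose (4.67%) lay below the untreated arrays without overlap, each by at most 0.03. A linear slope on the AA dose, fitted over 12 arrays, was called for 0 of the 8 genes (0.245% of all clusters). These were 71 clusters. Leaving out the high-dose array of experiment 1, 2 or 3 gave 199, 151 or 39, the untreated array of experiment 2 or 3 gave 39 or 42, the low-dose array of experiment 2 gave 46, and all arrays of experiment 2 gave 30. The lowest unadjusted p belonged to TRIM25, with a slope of -0.17 per 100 µg/ml and an unadjusted p of 0.0534 in limma, followed by SP140 with -0.18 and 0.0644. SP100 and SP110 had slopes of 0.04 and 0.01.

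**Figure D3:**
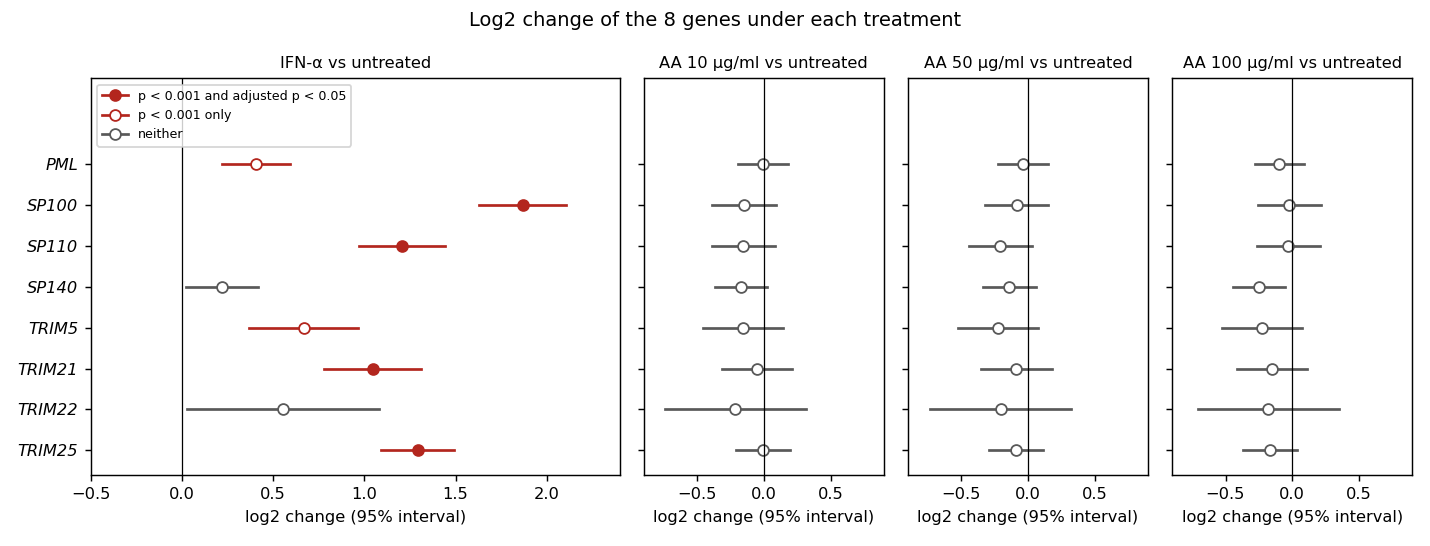
Log2 change of each gene against untreated cells, with its 95% interval from limma, for IFN-α and the 3 AA doses; the x axis of the IFN-α panel is longer. Intervals lie above 0 for all 8 genes under IFN-α, with filled red points for SP100, SP110, TRIM21 and TRIM25 (called at both thresholds) and open red points for PML and TRIM5 (first threshold only), and no gene is called at any AA dose.

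The next comparison set the treatments against each other and asked which of the 8 genes differed between IFN-α and high-dose AA. IFN-α gave the higher value in all 8 genes, without overlap of the arrays (3.74% of all clusters). At the first threshold 7 of 8 were called (0.65% of all clusters were), and 6 of 8 at the adjusted threshold (0.325%). The log2 difference was 1.89 for SP100, 1.46 for TRIM25, 1.23 for SP110 and 1.20 for TRIM21. It was 0.89 for TRIM5 and 0.50 for PML, with adjusted p of 0.00815 and 0.0197 in limma, so both passed the stricter threshold in the model of 15 arrays. In a model of the 6 arrays compared neither was called even at the first threshold, with an unadjusted p of 0.00142 for TRIM5 and 0.00174 for PML in limma. Without experiment 2 neither was called (0.00102 for TRIM5 and 0.00285 for PML), and without experiment 3 PML was not (0.00152). The background moved too: 188 of all clusters were called, but 586 without high-dose replicate 1, 117 without IFN-α replicate 3, 93 without experiment 2 and 113 without experiment 3.

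SP140 differed by 0.47 with a 95% interval of 0.27 to 0.66, an unadjusted p of 1.70e-04 and an adjusted p of 0.0517. Its arrays measured 9.56, 9.64 and 9.65 under IFN-α, against 9.31, 9.16 and 8.97 at the high dose of AA. SP140 lay above its untreated mean of 9.40 under IFN-α and below it at the high dose. TRIM22 differed by 0.73 (0.21 to 1.26 at 95%) with an unadjusted p of 0.00984 and was not called. With the experiment as a fixed block its unadjusted p was 5.72e-05 and its adjusted p 0.0180, which brought the count to 8 of 8. Without the high-dose array that stood apart, 7 of 8 were called.

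IFN-α was thus the highest condition in all 8 genes, and the distance between the lowest and the highest of the 12 remaining arrays was 0.25 to 0.69 in 7 genes and 0.997 in TRIM22. For SP100 these 12 arrays spanned 7.72 to 8.14 and the lowest IFN-α array was 9.69. For PML they spanned 8.18 to 8.44 and the lowest IFN-α array was 8.67. Among the untreated, low-, intermediate- and high-dose means, no pair of untreated and AA means was called as different in any of the 8 genes.

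None of the measured genes for PML-body residents and the SUMO machinery was called under IFN-α. Of 32 genes for residents of PML bodies and for the SUMO machinery that modifies PML, 26 were measured by a cluster with 1 symbol. Beside 0.28% of all clusters called under IFN-α, 0 of these 26 genes were called higher or lower. Their median change was -0.00 and the highest was 0.38, for ISG20, a nuclease. ISG20 had an unadjusted p of 0.00228 in limma. SP140L, the family member between SP140 and SP100, measured 0.22 higher with an unadjusted p of 0.0335. DAXX, the histone chaperone that PML bodies hold, changed by -0.08. ISG20, SP140L and DAXX were chosen after their values were seen.

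No other TRIM gene measured by a cluster with 1 symbol was called either. There were 51 further genes measured whose symbol is TRIM and a number, among them the antisense RNA TRIM67-AS1. Beside 0.28% of all clusters called under IFN-α, 0 of these 51 were called, with a median change of 0.01 and a highest change of 0.44. The genes with the lowest p, chosen after their values were seen, were TRIM14, which acts with MAVS (0.44, unadjusted p of 0.00190), and TRIM56, which acts with STING (0.41, unadjusted p of 0.00265). TRIM26, TRIM38 and TRIM69, also picked after their values were seen, measured 0.37, 0.39 and 0.22 higher. Their unadjusted p in limma were 0.00787, 0.0106 and 0.00624. Of the 51 changes, 27 were above 0 and 24 below. Of 18 genes listed for interferon or antiviral roles, 15 were measured and 0 called, with a median of 0.02. TRIM6, TRIM23 and TRIM34 had no cluster with 1 symbol and were not measured. Between IFN-α and high-dose AA, 0.65% of all clusters were called in either direction. In that comparison 4 of the 51 were called higher under IFN-α (TRIM14, TRIM26, TRIM38 and TRIM56, differences of 0.48 to 0.58, none at the adjusted threshold). Among the 26 PML-body partners measured, 2 were called higher, ISG20 and SP140L.

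The genes of the sensing steps on which the TRIM ligases act held 3 called genes. Beside 0.28% of all clusters called under IFN-α, 3 of the 15 genes measured were called higher and 0 lower. These were RIGI, the RNA sensor that TRIM25 acts with (2.17, adjusted p = 1.85e-07 in limma), DHX58 (1.67, adjusted p = 2.62e-06) and IFIH1 (1.66, adjusted p = 1.36e-04), the other receptors of its family. The median of the 15 was 0.03, and MAVS, the adaptor downstream of the RNA sensors, changed by -0.07 with an unadjusted p of 0.546. ZC3HAV1, which encodes ZAP, changed by 0.13 with an unadjusted p of 0.234. MAVS and ZC3HAV1 were likewise named after their values were seen.

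Of 12 interferon signalling and control genes, 10 were measured, and 8 were called higher under IFN-α, beside 0.28% of all clusters called. OAS2, OAS1 and IFI44L had the lowest p, with changes of 4.78, 3.54 and 4.99. The median of the 10 was 1.63, whereas that of the 8 PML-body and TRIM genes was 0.86. At all 3 doses of AA, 0 genes of these lists were called, beside 0.0207% (low), 0.0311% (intermediate) and 0.259% (high) of all clusters.

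**Figure D4:**
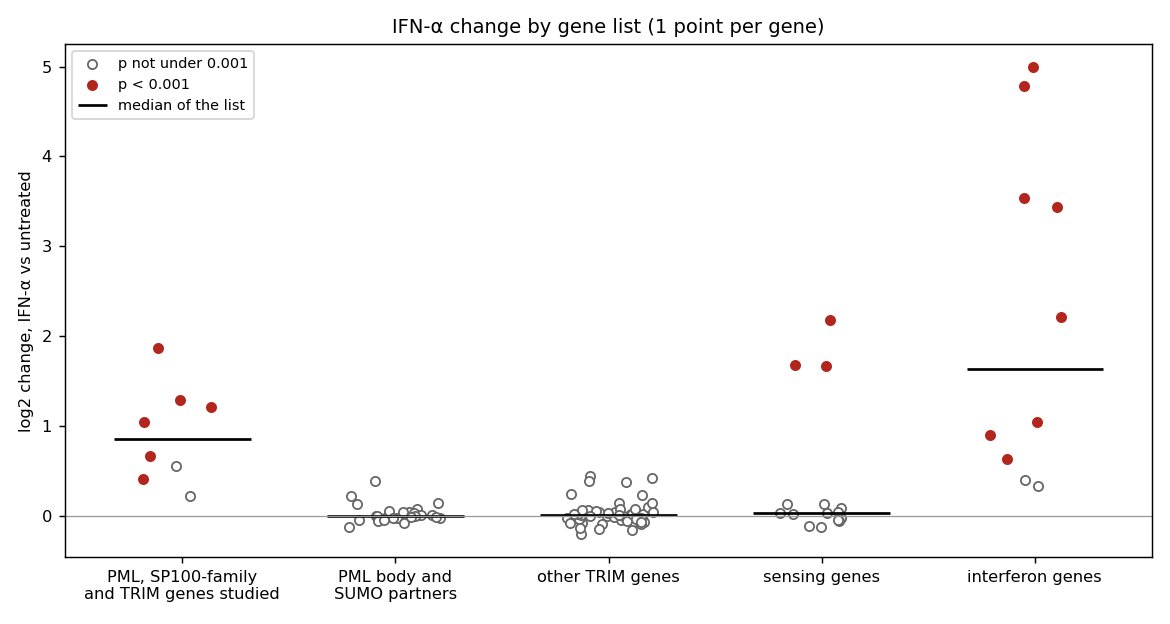
Log2 change under IFN-α against untreated cells, with 1 point per gene, for the 8 genes and 4 lists; red points are called at p under 0.001 and lines are medians (0.86 for the 8 genes, -0.00 for PML-body and SUMO partners, 0.01 for other TRIM genes, 0.03 for sensing genes and 1.63 for interferon genes). No partner and no other TRIM gene is red, and 3 sensing genes are.

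For each called gene the most similar other gene on the array was sought, by the root mean square difference over the 12 changes (4 treatments in 3 experiments). SP100 was nearest to IFIH1 (0.190), with IFN-α changes of 1.64, 1.69 and 1.66 in the 3 experiments. SP110 was nearest to SAMD9L (0.218), which changed by 1.02, 1.23 and 1.33. The IFN-α changes are among the 12 compared, so a shared direction under IFN-α follows from the choice and is no separate result.

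TRIM25 was nearest to DTX3L (0.154), with 1.53, 1.34 and 1.32, and TRIM21 to LY6E (0.111), with 1.18, 1.15 and 0.85. TRIM5 was nearest to PSMB9, an interferon-inducible subunit of the proteasome (0.130), with 0.66, 0.62 and 0.55. PML was nearest to TAP1, which carries peptides for MHC class I (0.0848), with 0.39, 0.29 and 0.26. That all 6 nearest genes were higher under IFN-α in each experiment likewise follows from how they were chosen. TAP1 was not called (unadjusted p of 0.00384 in limma). These distances are descriptions over 12 changes that share the untreated arrays.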

How the data were processed

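The authors deposited 1 log2 value per transcript cluster and array, made by robust multichip averaging (RMA), which corrects the background, normalizes quantiles and sums up probes, with the xps package, as the study's methods state. The genome build behind the probes is not given in the sources used here, and gene names come from the platform annotation (19310 clusters with 1 symbol, 1752 with several, 7864 with none). No further normalization was applied. Precision is limited by having 3 arrays per condition.

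Contrasts were estimated with limma 3.58.1 in R 4.3.3 in 1 model over 15 arrays with default eBayes (residual degrees of freedom 10, prior 3.91), and the dose slope in a model over 12 arrays. The whole table of 28926 clusters was fitted and adjusted. At an unadjusted p under 0.001, 28.9 calls per comparison are expected by chance. The experiment of an array was read from the tag that ends its title. The tags of experiments 2 and 3 differ only by a letter, so p-values measure the spread between experiments whose independence is not fully known. The same tag pairs the arrays across conditions: after subtraction of condition means, arrays of the same experiment correlated with a median r of 0.281 over 30 pairs (-0.194 to 0.536), against -0.172 over 60 other pairs. The study's methods name no block, so the experiment entered as a fixed or random block (statmod 1.5.0) only as an alternative.

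On simulated arrays for the comparison of IFN-α with untreated cells (28926 clusters), 59% of added changes of 0.5 and 92% of changes of 1 were called, as were 31 of 28726 unchanged clusters. The simulated noise was independent between arrays, with no effect of the experiment and no array that stood apart, unlike in the data. These rates average over clusters drawn at random and do not give the rate for a single gene. All 8 genes are named. From each list up to 3 called genes with the lowest p were named, and for each called gene the nearest other gene, and exceptions are stated. The genes, lists and alternatives were chosen with earlier results of these data known. A gene with several clusters is represented by the brightest. Promoter sequences (GRCh38.p14) were read from RefSeq windows, without PML and TRIM22.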

Additional observations from a re-analysis of the deposited data

How the results depend on the processing

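SP100, SP110, TRIM21 and TRIM25 kept their direction and their call under IFN-α against untreated cells in every alternative tried (fixed and random replicate block, 2 filters on clusters, trended and robust empirical Bayes, array weights, cyclic loess, the adjusted threshold, a model of 6 arrays, and each array or experiment left out). Over all genes, comparisons and alternatives, 1190 of 1264 values kept direction and side of the threshold, 27 lost a call, 4 gained one and 43 changed sign, the last only for AA changes and slopes that were never called. Of the 8 genes 6 were called under IFN-α, 7 with the fixed replicate block, 4 at the adjusted threshold, 5 in the model of 6 arrays, and 4 to 6 with an array or experiment left out. Against high-dose AA 7 were called, 8 with the fixed replicate block, 4 in the model of 6 arrays, where PML, SP140 and TRIM5 lost their call, and 4 to 8 with an array or experiment left out. Without experiment 2, 4 were called (PML, SP140 and TRIM5 lost), without experiment 3, 5 (PML and SP140 lost), and without experiment 1, 8 (TRIM22 gained). The fixed block added TRIM22 in both comparisons and changed no other call at p under 0.001. Adjusted p over the first 9 alternatives (limma) was 3.64e-04 to 0.866 for SP140 against high-dose AA (blocks 0.0420, 0.0276). Under IFN-α it was 0.00109 to 0.123 for TRIM5 (random block 0.0482) and 0.0260 to 0.357 for PML. At the high dose of AA 1 gene was called with array weights, SP140 (-0.22, unadjusted p of 9.44e-04 in limma), in a fit that called 2089 of all clusters, against 75 without weights; 1 of the 2 weight fits stopped before convergence. With any array or experiment left out, 0 genes were called at any AA dose or for the slope.

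The counts over all clusters at the high dose were 193 with the fixed and 150 with the random replicate block, 38 without the dimmest 25% of clusters, 42 for clusters with 1 symbol and 7 in the model of 6 arrays. At the intermediate dose 9 clusters were called, but 19, 17 and 74 with the fixed block, the random block and array weights, and at the low dose 6, but 18, 12 and 97, with 24 in the model of 6 arrays and 2 for clusters with 1 symbol. For IFN-α against high-dose AA 188 were called, 354 and 298 with the 2 blocks, 2150 with array weights and 64 in the model of 6 arrays. For the slope 71 were called, 227 and 120 with the blocks and 46 and 40 with the 2 filters. Under IFN-α 81 were called, 127 with array weights. With an array or experiment left out they ranged from 19 to 418 at the high dose, 3 to 29 at the intermediate and 1 to 19 at the low dose, 93 to 586 for IFN-α against high-dose AA, 30 to 199 for the slope and 49 (without experiment 2) to 98 under IFN-α. The cause of these differences was not tested.

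Sign changes came with array weights for the slopes of SP100 (-0.053) and SP110 (-0.053), and with cyclic loess for SP100 (0.035) and SP110 (0.028) at the high dose and PML (0.011) and TRIM25 (0.021) at the low dose. With an array or experiment left out the slope ranged from -0.028 to 0.13 for SP100, -0.052 to 0.085 for SP110, -0.30 to 0.026 for TRIM21, -0.30 to 0.073 for TRIM22 and -0.33 to 0.038 for TRIM5. The high-dose change ranged from -0.10 to 0.090 for SP100, -0.11 to 0.057 for SP110, -0.33 to 0.029 for TRIM21 and -0.38 to 0.0053 for TRIM5. The intermediate-dose change ranged from -0.13 to 0.053 for PML, -0.21 to 0.00093 for SP100 and -0.46 to 0.0011 for TRIM22, and the low-dose change from -0.067 to 0.039 for PML, -0.47 to 0.043 for TRIM22 and -0.081 to 0.039 for TRIM25. Averaging over the clusters of a gene left the IFN-α median of the 8 genes and of the 5 gene lists as it was. Under IFN-α PML was called at 0.41 (SD 0.094) but TRIM22 not at 0.55 (SD 0.345), so size alone did not decide.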

Other observations

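The gene after TRIM22 on chromosome 11, the olfactory receptor OR52N4, had the changes most like those of TRIM22, with a root mean square difference of 0.140 over 12 changes. IFN-α changed OR52N4 by 0.90, 0.32 and 0.43 in the 3 experiments, and TRIM22 by 0.82, 0.46 and 0.38. The unadjusted p of OR52N4 was 5.19e-04 and the adjusted p 0.200 in limma. Whether the probes of this cluster also read transcripts of TRIM22 was not tested.

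SP140 likewise had its chromosomal neighbour SP140L as the second nearest gene (0.0862), after ARHGAP15 (0.0666). IFN-α changed SP140L by 0.12, 0.29 and 0.26, and SP140 by 0.14, 0.30 and 0.22. OR52N4, SP140L and ARHGAP15 were looked at after their values were seen, since neither TRIM22 nor SP140 was called.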
